A study of Mus musculus with 2 samples.

Results

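The genes described here are 9 members of the bone morphogenetic protein (BMP) pathway: the ligand gene Bmp4, the receptor genes Bmpr1a and Bmpr2, the common mediator Smad4, the inhibitory SMAD genes Smad6 and Smad7, and the ID genes Id1, Id2 and Id3. They are 9 of the 22367 protein-coding genes of the mouse annotation. They were named by symbol and not selected by a measured value, but earlier results of these data were known when they were chosen. For each gene, peaks of open chromatin within 1 kb of any annotated start site were taken as start site peaks. All other peaks in the gene body or within 50 kb of either end were taken as distal peaks. A distal peak is placed near a gene by position alone, and the gene it acts on was not measured.

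ATAC-seq maps open chromatin through a transposase that cuts accessible DNA and adds adapters to it, and was run here on ileum-derived enteroids of 4-month-old C57Bl6/129sv mice. Enteroids are epithelial cultures grown from intestinal crypts. The control library came from Taf4 lox/lox enteroids, labelled WT. The Taf4-inactivated library came from Taf4 lox/lox::VilCreERT2 enteroids, labelled KO. In these the Villin promoter drives a tamoxifen-activated Cre recombinase in intestinal epithelium, and Cre deletes Taf4, whose product belongs to TFIID, a general transcription factor. Both carried the floxed Taf4 allele and both received 1 µM 4-hydroxytamoxifen for 3 days, but only the Taf4-inactivated cells carried Cre, so Cre itself and loss of Taf4 cannot be told apart. There was 1 library per genotype, so no difference below has a replicate error or a test, and each describes these 2 libraries.

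In the BMP pathway a secreted ligand brings together type I receptors, such as the product of Bmpr1a, and type II receptors, such as the product of Bmpr2. The receptors phosphorylate SMAD1, SMAD5 and SMAD9, which join SMAD4, enter the nucleus and bind DNA. SMAD6 and SMAD7 oppose this signal and are themselves induced by it, as are Id1, Id2 and Id3, whose proteins block basic helix-loop-helix factors. In the intestine Bmp4 is made mainly by stromal cells, and BMP activity is high along the villus and held low around the crypt base by secreted antagonists.

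The control list held 90445 peaks and the Taf4-inactivated list 71282. The background level solved from each list gave an estimated depth 1.65 times as high for the control library. It is called the deeper library below on this estimate. At a deposited −log10 q of at least 5 the order was the opposite, with 10757 control peaks and 20474 Taf4-inactivated ones. Because fold enrichment is relative to the background of its own library, peaks were compared by the percentile of their fold enrichment within their own list. A rank difference is the Taf4-inactivated percentile minus the control percentile, in points. Epithelial markers had start site peaks in both lists for 8 of 8 genes. Those of fibroblasts and muscle had them for 4 of 9 (Pdgfra, Col1a1, Col1a2 and Des). Of 5 endothelial markers Kdr had them in both lists and Pecam1 in control only, and of 6 immune markers Itgam alone had them, in both lists. The other markers of these 3 groups, among them Ptprc, Cd3e, Cdh5, Dcn and Acta2, had none in either list. Both lists held a start site peak at the targeted gene, annotated Taf4a, which does not show whether its floxed exons are present.

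SMAD proteins bind GTCT and GC-rich letters. Searched on both strands, the letters GGCGCC followed by any 5 bases and GTCT, called the compound element below, occurred 447 times in the mm9 genome, or 0.175 per Mb. The windows of the 9 genes (gene bodies with 50 kb on each side, 1.27 Mb) held 6 of them, or 4.71 per Mb. All 6 lay by ID genes, with 1 at Id1, 2 at Id2 and 3 at Id3, and none lay in the windows of the other 6 genes. Of the windows of all 22367 coding genes, 3.76% held at least 1 element, 0.224% at least 2 and 0.0402% at least 3. The search of whole windows was added after the peaks had been examined, and base composition was not matched. The letters were chosen from prior knowledge of SMAD binding at BMP target genes. Their density at ID genes is thus a description and not independent support. The 5 elements at Id2 and Id3 are shown on the strand that reads GGCGCC first, with the element in capitals and 30 bases on each side, since their places recur in the values below.
Id2 upstream, chr12:25783689-25783763, minus strand: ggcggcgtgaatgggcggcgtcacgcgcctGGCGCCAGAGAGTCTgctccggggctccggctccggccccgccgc
Id2 downstream, chr12:25777879-25777953, minus strand: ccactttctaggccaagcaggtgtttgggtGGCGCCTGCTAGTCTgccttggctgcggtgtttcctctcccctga
Id3 upstream, chr4:135696425-135696499, plus strand: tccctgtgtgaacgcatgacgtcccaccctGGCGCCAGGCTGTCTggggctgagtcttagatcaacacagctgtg
Id3 intron, chr4:135700678-135700752, plus strand: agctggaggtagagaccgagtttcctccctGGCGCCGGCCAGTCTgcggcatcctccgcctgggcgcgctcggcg
Id3 downstream, chr4:135703866-135703940, plus strand: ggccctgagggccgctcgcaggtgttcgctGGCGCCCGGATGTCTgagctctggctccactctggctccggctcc

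The 5 bases between the required letters are a different run in each of the 5. Of the 6 elements 5 lay in a control peak and all 6 in a Taf4-inactivated peak. Across the genome 24.8% of the 447 elements lay in a control peak and 21.3% in a Taf4-inactivated peak. The letters are a description and do not show that a SMAD was bound.

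**Figure D1:**
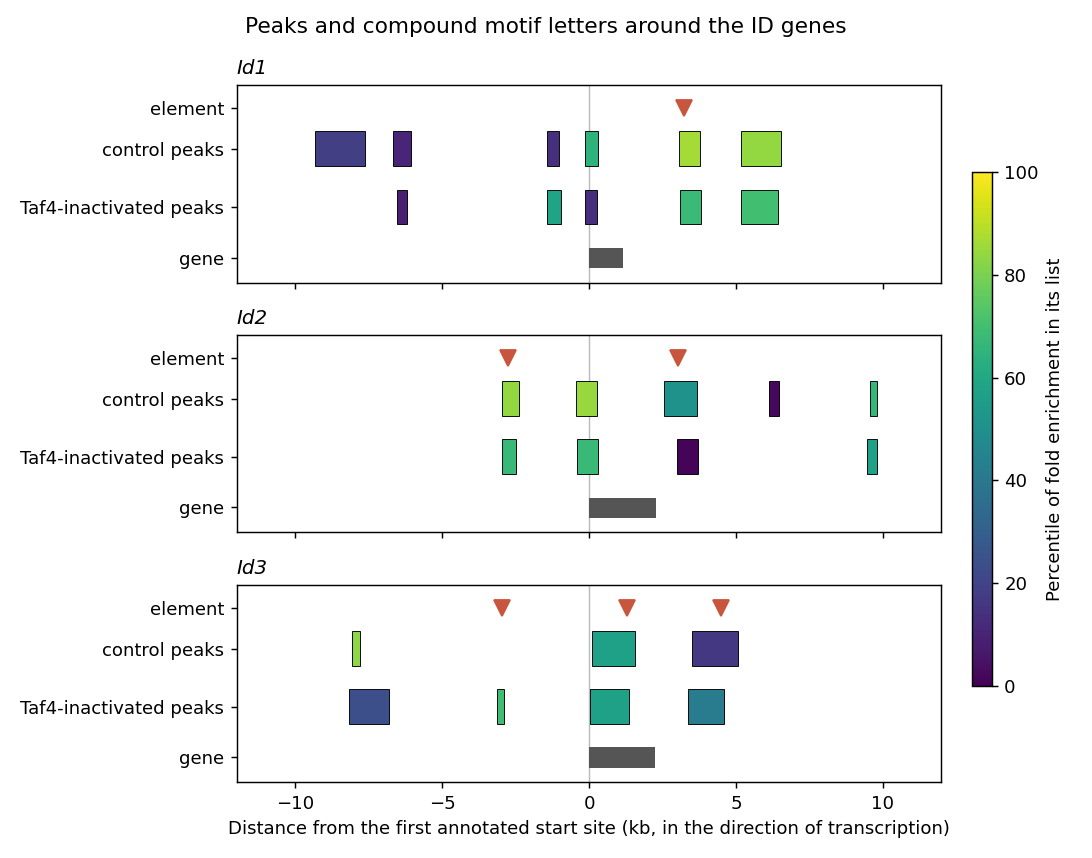
Peaks within 12 kb of the first annotated start site of Id1, Id2 and Id3 by distance in kb, with control peaks above Taf4-inactivated peaks, filled by percentile of fold enrichment within their list; triangles mark compound elements and grey boxes the gene. Each ID gene had an element in a peak 2 to 5 kb from its start, and the peak over the upstream Id3 element was called only in the Taf4-inactivated library.

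All 9 genes had a start site peak in control enteroids and 8 had one after Taf4 inactivation. Over all coding genes the shares were 68.4% (control), 65.6% (Taf4-inactivated) and 62.7% (both). Bmp4 was the exception, with a start site peak in control only, as had 5.7% of coding genes. Among the 8 genes with a peak in both lists, 6 ranked lower in the Taf4-inactivated list and 2 higher, with a median difference of -6.45 points. The median was -0.975 points when both lists were held to a −log10 q of at least 2 and -1.79 points with 50000 peaks in each, and Id1 and Id3 then ranked higher. The median over all 14014 coding genes with peaks in both lists was -2.77 points. None of the 8 moved by 25 points or more. Over coding genes 9.08% ranked at least 25 points lower and 5.93% at least 25 points higher.

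**Figure D2:**
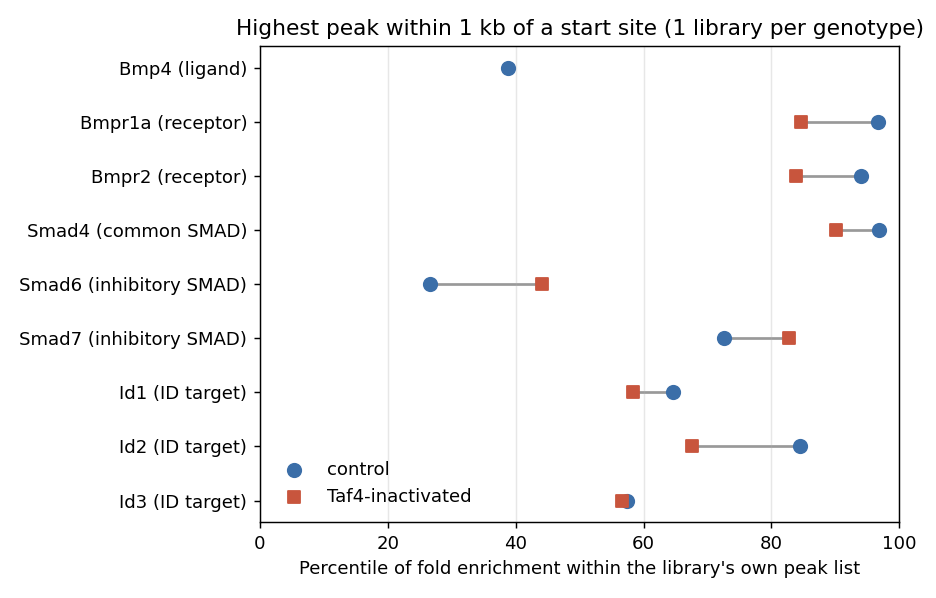
Percentile of fold enrichment, within the library's own list, of the highest peak within 1 kb of a start site of each gene, with control as circles and Taf4-inactivated as squares. The receptor genes and Smad4 lay above percentile 80 in both libraries, Smad6 was lowest among the genes with both points, and Bmp4 had no Taf4-inactivated point.

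Bmp4 (ENSMUSG00000021835.8, chr14:47003195-47010344, minus strand) encodes the ligand. Its control start site peak, chr14:47009702-47010509, was 808 bp wide, at percentile 38.8 (fold enrichment 1.98, −log10 q 1.89). The Taf4-inactivated list held no peak within 1 kb of its 3 annotated starts. The RefSeq promoter window of Bmp4 (table on GRCm38.p6, found once in mm9 by exact match at chr14:47010295-47010594, minus strand) is shown because 215 of its bases lay in the control peak and 0 in a Taf4-inactivated peak. It holds none of the 3 motifs searched.
Bmp4 promoter window: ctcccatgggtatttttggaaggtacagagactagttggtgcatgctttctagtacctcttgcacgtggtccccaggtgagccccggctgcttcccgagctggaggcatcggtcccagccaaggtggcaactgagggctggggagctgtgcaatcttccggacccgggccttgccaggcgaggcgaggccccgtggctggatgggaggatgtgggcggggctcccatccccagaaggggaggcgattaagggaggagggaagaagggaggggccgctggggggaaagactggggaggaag

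This was a weak peak in the deeper library, and its absence from the other list was not separated from depth. Bmp4 is made mainly by stromal cells, so the marker peaks of other cell types are given beside it. Of the 4 fibroblast and muscle markers with peaks in both lists, Pdgfra ranked at percentile 74.3 in control and 33.3 after inactivation, Des at 81.9 and 53.2, Col1a2 at 52.7 and 30.03, and Col1a1 at 10.7 and 18.1. The endothelial gene Kdr ranked at 93.1 and 35.9. The immune gene Itgam ranked at 59.3 and 29.4, but its peaks in the lists lay at different annotated starts and did not overlap. Of the 8 epithelial markers 4 ranked lower and 4 higher, with a median difference of -0.577 points. The most negative was Krt18, at 68.7 and 36.4. The part of other cell types in the Bmp4 result was not tested. Bmp4 also had 3 distal peaks in each list, of which only 1 pair overlapped, 7.66 kb upstream, at percentile 73.4 in control and 49.2 after inactivation.

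Bmpr1a (ENSMUSG00000021796.8, chr14:35223920-35316527, minus strand) encodes the type I receptor. Its start site peak spanned chr14:35315214-35316510 in control, with a fold enrichment of 3.08 at percentile 96.7. After Taf4 inactivation it spanned chr14:35315228-35316585, with a fold enrichment of 3.36 at percentile 84.7. The 2 peaks shared 1283 bp, and the rank difference was -12.02 points. Its RefSeq promoter window (chr14:35315683-35315982, minus strand), shown for the strong peak that covered all of it in both libraries, was 79.3% G and C, more than 98.7% of windows, and held GGCGCC (in capitals) at position -198 from the start.
Bmpr1a promoter window: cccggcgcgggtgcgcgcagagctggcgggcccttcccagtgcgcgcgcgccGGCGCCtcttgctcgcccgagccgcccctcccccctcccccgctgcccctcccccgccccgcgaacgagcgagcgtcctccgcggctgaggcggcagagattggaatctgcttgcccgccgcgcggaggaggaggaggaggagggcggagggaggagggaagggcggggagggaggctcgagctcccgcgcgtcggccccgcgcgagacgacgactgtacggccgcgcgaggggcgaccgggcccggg

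Bmpr2 (ENSMUSG00000067336.4, chr1:59821481-59927703, plus strand) encodes the type II receptor. Its start site peak was over 2 kb wide in both libraries, chr1:59819541-59821712 in control and chr1:59819647-59821703 after inactivation. Its fold enrichment was 2.81 at percentile 94.1 in control and 3.32 at percentile 83.9 after inactivation, a difference of -10.2 points. The receptor genes thus had nearly the same edges in both lists and lower ranks after Taf4 inactivation.

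Smad4 (ENSMUSG00000024515.7, chr18:73798663-73863434, minus strand) encodes the shared partner of receptor-activated SMADs. By fold enrichment Smad4 had the highest start site ranks of the 9 genes in both lists. Fold enrichment was 3.08 at percentile 96.8 in control and 3.70 at percentile 90.1 after inactivation. The Taf4-inactivated peak contained all 1262 bp of the control peak, and the rank difference was -6.67 points. By −log10 p Bmpr1a ranked above Smad4 in control (97.25 against 96.71), and Id2 did after inactivation (92.17 against 91.92). An internal start of Smad4 had a further peak in the Taf4-inactivated list alone, 282 bp wide, with a fold enrichment of 2.47 at percentile 51.7.

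Smad6 (ENSMUSG00000036867.5, chr9:63800953-63869866, minus strand), an inhibitor of the BMP branch, ranked lowest of the 8 by the fold enrichment of its highest start site peak. This peak was 2873 bp wide in control, chr9:63868306-63871178, with a fold enrichment of 1.92 at percentile 26.7. After Taf4 inactivation it was 1418 bp wide, chr9:63869767-63871184, with a fold enrichment of 2.38 at percentile 44.2. The right edges lay within 6 bp of each other, while the left edge, inside the gene, lay further in for control. A separate 413 bp peak of the Taf4-inactivated list, 1.23 kb into the gene, overlapped the rest of the control peak, at percentile 0.073. The Smad6 rank differed by 17.5 points by fold enrichment but by -4.33 points when peaks were ranked by −log10 p, which also weighs depth, so its direction depends on the measure. By −log10 p the highest start site peak of Id3 ranked below that of Smad6, at 84.1 and 76.0 against 86.0 and 81.7.

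The Smad6 promoter window (chr9:63869817-63870116, minus strand) is shown because it holds GTCTAGAC, a palindrome of letters bound by SMADs, at position -4 from the start. This occurs in 0.213% of the 32851 RefSeq windows and in 1 of the 6 matched to the 9 genes. All 300 bases lay in a peak in both libraries.
Smad6 promoter window: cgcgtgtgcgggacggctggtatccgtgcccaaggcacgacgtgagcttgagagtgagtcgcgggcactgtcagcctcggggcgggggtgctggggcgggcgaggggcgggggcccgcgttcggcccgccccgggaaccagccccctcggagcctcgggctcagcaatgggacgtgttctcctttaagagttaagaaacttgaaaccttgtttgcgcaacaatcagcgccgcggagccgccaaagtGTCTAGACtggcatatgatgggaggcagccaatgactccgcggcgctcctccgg

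Smad7 (ENSMUSG00000025880.5, chr18:75527183-75555589, plus strand), an inhibitor of both BMP and TGF-beta receptors, had several start site peaks. In control, peaks of 1387 bp at percentile 72.6 and 660 bp at percentile 13.0 covered the first start and a later one. After Taf4 inactivation a single 2904 bp peak at percentile 58.2 covered the ground of both, a difference of -14.4 points from the higher of them. The highest Taf4-inactivated start site peak of Smad7 was elsewhere. It lay 8185 bp into the gene, beside a later annotated start, was 379 bp wide with a fold enrichment of 3.26 at percentile 82.7 and a −log10 q of 9.13, and overlapped no control peak. Taking the highest peak in each list, Smad7 was 10.1 points higher after inactivation. The sign of its difference thus depends on which start is compared.

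Id1 (ENSMUSG00000042745.9, chr2:152561987-152563146, plus strand) had a narrow peak over its start, with neighbors 1.2 kb upstream and 3.4 and 5.8 kb downstream. The start peak spanned chr2:152561832-152562287 in control, with a fold enrichment of 2.13 at percentile 64.6. After inactivation it spanned chr2:152561840-152562257, with a fold enrichment of 2.12 at percentile 12.9. The rank difference of this overlapping pair was -51.7 points. A difference as low or lower was found in 1.34% of the coding genes with overlapping start site peaks. By −log10 p it was -24.3 points. The peak upstream of the Id1 start went the other way, from a fold enrichment of 1.85 at percentile 13.7 in control to 2.57 at percentile 58.4 after inactivation, 44.6 points higher. By −log10 p it was 19.1 points higher. Its control form lay just outside 1 kb of the start and its Taf4-inactivated form just inside, so the highest start site peaks of Id1 differed by only -6.22 points.

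Comparing overlapping peaks only, 1 of the 8 genes (Id1) was at least 25 points lower, as were 9.54% of coding genes. The median over the 8 was then -11.1 points, against -3.01 points over coding genes.

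Id2 (ENSMUSG00000020644.8, chr12:25778666-25780957, minus strand) had a sharp start site peak, chr12:25780672-25781411 in control and chr12:25780667-25781361 after inactivation, 690 bp of it shared. Its fold enrichment was 2.39 at percentile 84.4 in control and 2.75 at percentile 67.6 after inactivation. The rank difference was -16.9 points by fold enrichment and -3.84 points by −log10 p. The Id2 promoter window (chr12:25780908-25781207, minus strand) lay wholly within both peaks and holds GGCGCC (in capitals) at position -231 from the start. That motif was found in 11.9% of all windows and in 3 of the 6 matched ones, those of Bmpr1a, Bmpr2 and Id2. None of the 6 windows held the compound element, which 0.0731% of all windows held.
Id2 promoter window: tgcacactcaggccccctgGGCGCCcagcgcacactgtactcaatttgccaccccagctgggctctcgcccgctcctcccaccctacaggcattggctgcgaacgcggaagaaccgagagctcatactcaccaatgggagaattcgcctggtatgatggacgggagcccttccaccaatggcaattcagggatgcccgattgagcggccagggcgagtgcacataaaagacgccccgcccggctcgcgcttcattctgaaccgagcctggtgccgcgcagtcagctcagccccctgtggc

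Id3 (ENSMUSG00000007872.3, chr4:135699412-135701670, plus strand) kept nearly the same rank. Its start site peak ran from the first exon into the intron, chr4:135699522-135700961 in control and chr4:135699443-135700763 after inactivation. Fold enrichment was 2.07 at percentile 57.4 in control and 2.54 at percentile 56.7 after inactivation. The peak held the intronic compound element of Id3 in both libraries. Of the 3 ID genes, the peak over the Id1 start thus ranked lowest after inactivation and that of Id2 highest. By fold enrichment Id3 differed least between the libraries, but by −log10 p its difference was -8.18 points, larger than that of Id2.

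The 9 genes had 103 distal peaks in control and 73 after Taf4 inactivation. In control 53 of the 103 overlapped no Taf4-inactivated peak, a share of 51.5% (exact Clopper-Pearson 95% interval 41.4 to 61.4%). For all coding genes the share was 52.0%. After inactivation 24 of the 73 overlapped no control peak, 32.9% (interval 22.3 to 44.9%), against 39.3% for all coding genes. The intervals cover counting error only, and neighboring peaks are not independent. Both intervals include the share of coding genes.

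**Figure D3:**
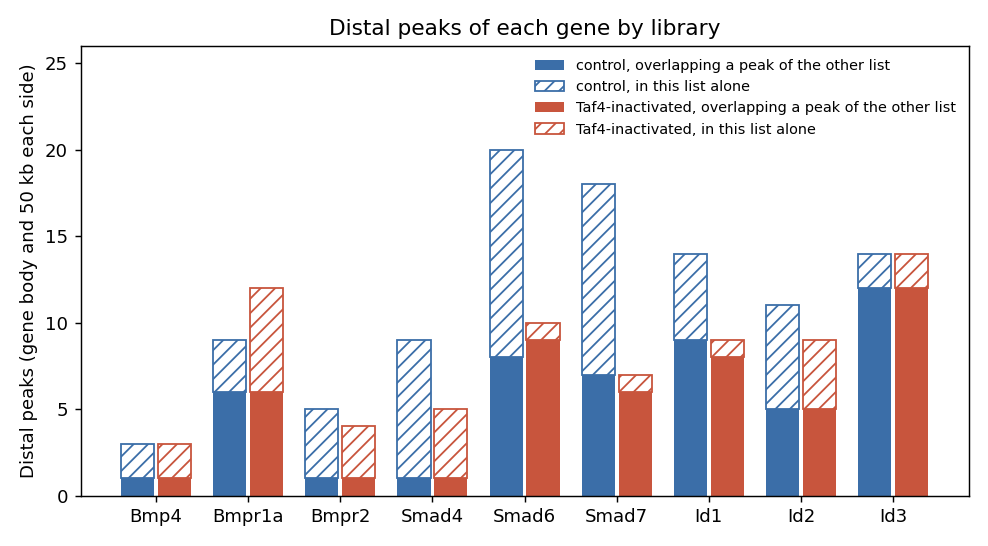
Number of distal peaks of each gene in the control (blue) and Taf4-inactivated (red) library, with peaks that overlap a peak of the other list filled and peaks in that list alone hatched. Smad6 and Smad7 had the most control peaks without a partner, 12 and 11, and 12 of 14 Id3 peaks were shared in both lists.

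The inhibitory SMAD genes had the largest difference in number. Smad6 had 20 distal peaks in control and 10 after inactivation, and 12 of the 20 were in control alone while 1 of the 10 was in the Taf4-inactivated list alone. Smad7 had 18 and 7, with 11 and 1 alone. These windows hold the start of no other coding gene. The control peaks without a partner were weak. Over all 9 genes the highest −log10 q among the 53 was 3.07. None of the 8 control distal peaks at a −log10 q of at least 5 lacked a partner. Among such control peaks of all coding genes, 90 of 8574 lacked one. The deeper control library moves with this count, and its part was not tested.

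Id3 was the opposite case. Its window held 14 distal peaks in each list, 12 of them shared in both, at 13.7 per 100 kb. This density was higher than that of 95.3% of coding genes in control and 98.6% after inactivation. In control Smad7 and Id1 were denser than Id3, above 96.2% and 95.8% of coding genes. After inactivation Smad7 and Id1 were above 58.2% and 83.95%. Id1 had 14 and 9 distal peaks, 5 and 1 of them alone, and Id2 had 11 and 9, with 6 and 4 alone. Of the other genes, Bmpr1a had more peaks after inactivation, 9 and 12, while Bmpr2 had 5 and 4 and Smad4 9 and 5. The median over the 9 genes was 10.7 distal peaks per 100 kb in control and 5.92 after inactivation, against 5.65 and 4.44 over coding genes. The windows of Id1 and Id3 also hold other coding genes (Cox4i2, H13 and Mcts2, and E2f2), as do those of Bmp4 (Gm15217), Bmpr1a (9230112D13Rik, Mmrn2 and Sncg) and Bmpr2 (Fam117b), and 7 control and 10 Taf4-inactivated distal peaks lay at a start site of another gene.

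The control library was deeper, while its peaks had the lower median fold enrichment, 2.03 against 2.45 in the Taf4-inactivated list. The part of either in the peaks called in 1 list alone was not tested. At a −log10 q of at least 5, 4 of the 24 Taf4-inactivated distal peaks overlapped no control peak. Of the strong Taf4-inactivated distal peaks of all coding genes, 2022 of 17187 did so. A pair lay upstream of Bmpr1a, at 2.13 kb (chr14:35318476-35318842, fold enrichment 2.84, −log10 q 7.34) and 9.41 kb (chr14:35325817-35326066, 3.13 and 5.03).

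Another lay by Id3. This peak, 3.03 kb upstream at chr4:135696262-135696513, had a fold enrichment of 2.80 at percentile 69.4 and a −log10 q of 6.65. All 252 bases of it are shown, plus strand, because it carries the upstream compound element of Id3 (in capitals).
Id3 upstream peak, Taf4-inactivated list alone: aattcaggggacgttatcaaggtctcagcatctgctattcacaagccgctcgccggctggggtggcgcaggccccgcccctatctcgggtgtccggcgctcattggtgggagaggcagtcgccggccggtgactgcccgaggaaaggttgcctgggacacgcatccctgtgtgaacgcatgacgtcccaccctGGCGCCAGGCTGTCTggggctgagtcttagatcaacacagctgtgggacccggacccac

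The last of the 4 lay 42.9 kb upstream of Smad4, inside Elac1, with a fold enrichment of 2.85 and a −log10 q of 5.20. The other peaks with compound elements were present in both libraries. The Id2 peak 2.7 kb upstream, chr12:25783336-25783912 in control, was the highest distal peak of Id2 in each list, at percentile 83.8 in control and 67.4 after inactivation. The Id2 peak 3.1 kb downstream, chr12:25777277-25778401 in control, was at percentile 51.0 and then 0.989, and its width was 1125 bp and then 734 bp. The Id1 peak 3.4 kb downstream was at 86.4 and 67.8. The Id3 peak downstream, chr4:135702903-135704495 in control, was at 16.4 and 41.1. At Id1 and Id2 the distal peaks over elements thus ranked lower after Taf4 inactivation, and those of Id3 ranked higher or were called only there. By −log10 p the downstream Id3 peak ranked lower instead, at 71.3 and 65.8.

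The highest distal peak was the same site in both lists for Bmp4, described above, Smad7, Smad4 and Bmpr2. For Smad7 it lay 24.5 kb upstream, at percentile 94.1 in control and 88.1 after inactivation. For Smad4 it lay 80.7 kb downstream of the first start, at 79.7 and 78.2. For Bmpr2 it lay at the start of Fam117b, at 98.5 and 92.4. The highest peak differed between the lists for Bmpr1a, where both sites lie in Ldb3 (45.8 kb upstream at percentile 88.3 in control, and 32.9 kb upstream at 94.8 after inactivation), and for Smad6, Id1 and Id3. For Smad6 it was a site 28.1 kb upstream at the start of 1110036E04Rik in control (80.9), and an intronic site 32.02 kb into the gene after inactivation (85.9). For Id1 it was the downstream element peak in control and the peak at the Mcts2 start after inactivation (94.7, against 64.4 in control). For Id3 it was a site at a start of E2f2 in control (87.6, against 39.0 after inactivation) and a site 26.3 kb upstream after inactivation (91.6, against 78.9 in control).

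Of the distal peaks, 49 pairs overlapped each other best. Their median rank difference was 0.258 points, with 24 pairs lower and 25 higher after Taf4 inactivation, against -2.08 points over the 35182 pairs of coding genes. Ranked by −log10 p, 33 pairs were lower and 16 higher, with a median of -4.61 points, so the balance depends on the measure. Id3 had 12 pairs, 9 of them higher by fold enrichment and 6 by −log10 p, and Smad6 had 8, 6 of them higher by fold enrichment and 5 by −log10 p. Bmpr1a had 6, 5 of them lower by either measure, and Id2 had 5, of which 4 were lower by fold enrichment and 5 by −log10 p. Neighboring pairs share a locus, and these counts describe 1 library of each genotype.

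**Figure D4:**
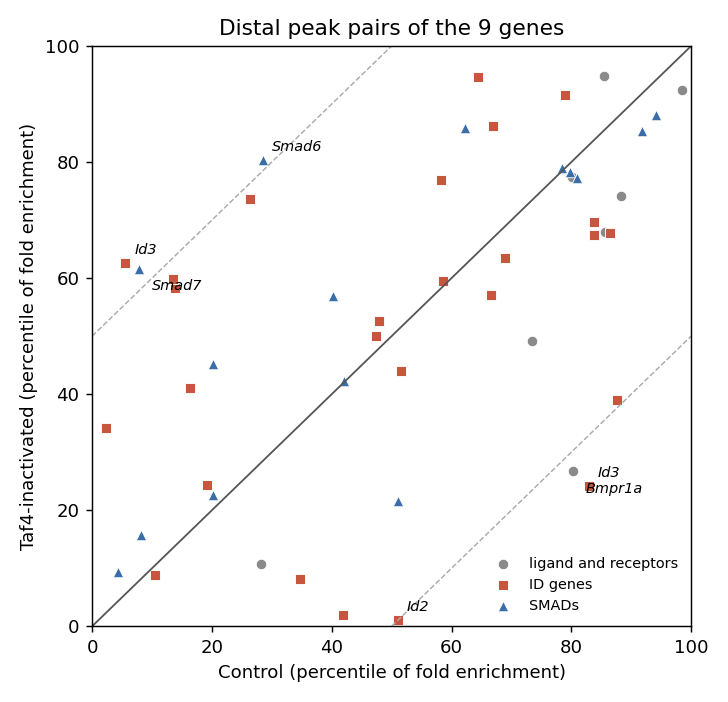
Percentile of fold enrichment of each of the 49 distal pairs in control (horizontal) and Taf4-inactivated (vertical), by role of the gene, with the diagonal of equal rank and dashed lines at 50 points either way. The 6 named pairs lie on or beyond the dashed lines, and 24 pairs lie below and 25 above the diagonal.

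Rank differences of 50 points or more were found for 3 pairs in each direction. Over coding genes 2.99% of pairs were at least 50 points lower and 2.53% at least 50 points higher. The lower ones were an Id3 site 7.93 kb upstream (percentile 83.0 in control and 24.2 after inactivation), a Bmpr1a site 40.6 kb upstream within Ldb3 (80.2 and 26.7) and the Id2 element peak 3.1 kb downstream (51.0 and 0.989). The higher ones were an Id3 site 34.3 kb downstream within E2f2 (5.50 and 62.6), a Smad7 site 44.8 kb downstream of its start (7.86 and 61.6) and a Smad6 site 80.1 kb downstream (28.6 and 80.4). All 6 kept their direction when ranked by −log10 p, but of the 6 only the Id3 site 7.93 kb upstream was then beyond 50 points (-58.4). The Id3 site 7.93 kb upstream was 284 bp wide in control and 1356 bp after inactivation, so a narrow peak was set beside a broad one.

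The other 46 BMP pathway genes were a list of ligands, receptors, SMADs, antagonists, modulators and targets. Of them 43 had start site peaks in control and 40 after inactivation, all 40 of them in both lists. Over all coding genes the shares were 68.4% (control), 65.6% (Taf4-inactivated) and 62.7% (both). Pathway genes with a peak in control only were Acvrl1, an endothelial type I receptor, Chrdl1, a secreted antagonist, and Msx2, a homeobox target. A peak in control only was found for 5.7% of coding genes. The Acvrl1 peak was near the floor of the control list, at percentile 1.62 and a −log10 q of 1.20. The antagonist gene Nbl1 and the ligand gene Bmp5 were among those with none in either list. The receptor SMAD genes Smad1, Smad5 and Smad9 had peaks in both, at percentiles 92.3, 91.9 and 92.6 in control and 90.6, 88.2 and 71.0 after inactivation. Of the 40 genes, 33 ranked lower after inactivation and 7 higher, with a median of -5.04 points. The 46, 43 and 40 genes and this median include the 4 TGF-beta genes Tgfbr1, Tgfbr2, Smad2 and Smad3, which all ranked lower. Over coding genes 9226 of 14014 ranked lower.

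**Figure D5:**
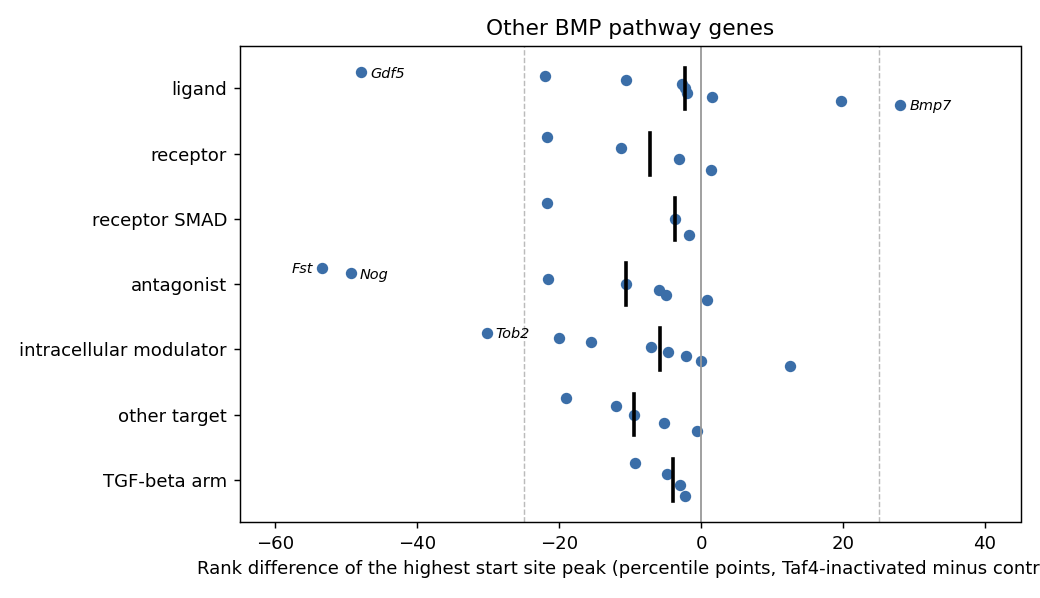
Rank difference of the highest start site peak (Taf4-inactivated minus control, percentile points) of the 40 other BMP pathway genes with peaks in both lists, by role; black bars are medians and dashed lines mark 25 points. Gdf5, Nog, Fst and Tob2 lie below the lower line and Bmp7 above the upper one. The 40 include the 4 TGF-beta genes.

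At 25 points or more, 4 of the 40 ranked lower and 1 higher, beside 9.08% and 5.93% of coding genes, so the lower count is near the general share. Among secreted antagonists these were Nog, encoding Noggin, at percentile 60.1 in control and 10.7 after inactivation, and Fst, encoding Follistatin, at 83.6 and 30.2. Gdf5, a ligand gene, was at 52.6 and 4.66, and Tob2, a modulator gene, at 31.9 and 1.71. For Tob2 the Taf4-inactivated peak that overlapped the control peak most was at 48.2, a difference of 16.3 points, so its direction depends on the peak compared. Bmp7, a ligand gene, was higher, at 42.0 and 70.0. Of the 7 antagonist genes with peaks in both lists 6 ranked lower, with a median of -10.6 points. Over all coding genes 9226 of 14014 ranked lower, with a median of -2.77 points. The 4 TGF-beta genes listed for contrast (Tgfbr1, Tgfbr2, Smad2 and Smad3) had a median of -3.88 points. Medians of the other roles ran from -9.41 points (other targets) to -2.23 points (ligands), so lower ranks were not particular to antagonists.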

How the data were processed

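The ATAC-seq data were 2 peak lists, 1 per genotype. The authors mapped uniquely aligning reads to mm9 with Bowtie 1.0.0 and ran MACS2 2.1.1 on each library alone for broad peaks, per the study's methods and the submitters' processing notes (which also name bcl2fastq 2.17.1.14). How duplicates were treated is not given in the sources used here. The deposited score is 10 times the −log10 q as a whole number, the deposited fold is relative to the background of that library, the deposited −log10 p and q are averages over each peak, at least 1.01 for q in control and 1.00 in the other list. Calls depend on depth, which was estimated from the background level that gives back the fold and p of the narrowest 10% of peaks (5th percentile). No value has a replicate error.

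Positions were made 1-based and set against the GENCODE vM1 annotation of NCBIM37 (mm9), in Python 3.11.15 (pandas 2.3.3, numpy 2.4.6, scipy 1.17.1, and matplotlib 3.10.9 for figures). Peaks sharing at least 1 bp were called overlapping, and pairs were peaks that overlapped each other best. RefSeq promoter windows (250 bases before to 50 after the start, GRCm38.p6) matched 6 of the 9 genes, and those of Smad4, Smad7 and Id1 were not used here. Tob2 has more than 1 entry in the annotation, of which the longer was taken. Overlap, depth and motif steps were tested on simulated data. In the depth simulation each peak had a single count, whereas the deposited values are averages over each peak. The depth estimate was therefore not tested on averaged values. No test between genotypes was possible with 1 library of each.

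All 9 genes were named. Other pathway genes were named when a start site peak was missing from a list or the rank differed by at least 25 points, and distal peaks when highest, unpartnered at a −log10 q of at least 5, or at least 50 points apart as a pair; other genes and sites were named after their values were seen, and 1 gene that met the rule is not reported here. The genes, lists and thresholds were chosen with earlier results of these data known. Alternatives changed the q minimum, start site distance, flank, overlap, list length and ranking value. Comparison of overlapping start site peaks and −log10 p ranks of pairs were added after seeing the data.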

Additional observations from a re-analysis of the deposited data

How the results depend on the processing

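Of 96 alternative values, 31 summaries over the genes stayed within the tolerance set for them (1.5 times for counts, 10 points for ranks, the 95% interval for shares), 16 moved and 1 changed sign; of single genes 35, 5 and 8 did. With a −log10 q of at least 5 in both lists, 5 of the 9 genes kept a start site peak in control, 22 of the 46 other pathway genes had one in both lists, distal peaks numbered 8 (control) and 24 (Taf4-inactivated), and the shares without a partner were 12.5% and 70.8%, the opposite order to the full lists. At a −log10 q of at least 2, control had 50 distal peaks, 32% without a partner. With the 50000 peaks of highest −log10 p per list it had 57, 36.8% without a partner. Flanks of 20 kb gave 53 and 37 distal peaks, and flanks of 100 kb gave 178 and 131. Requiring 50% of both peaks to overlap raised the shares to 67.0% and 54.8%. The median start site difference of the 8 genes was -0.975 points at a −log10 q of at least 2 and -1.79 points with 50000 peaks. The median rank difference of distal pairs was -4.61 points by −log10 p. Start site differences changed sign for Smad6 (-4.33 points) and Smad7 (-3.92 points) by −log10 p, for Smad7 within 500 bp or between overlapping peaks (-14.4 points in each), for Id1 (6.95 points) and Id3 (13.6 points) at a −log10 q of at least 2, and for Id1 (4.70 points) and Id3 (15.4 points) with 50000 peaks. The causes were not tested. No paired analysis was possible because each genotype had 1 library, and leaving a library out would have left nothing to compare. Depth limits the reading of weak peaks.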
